A study of Rattus norvegicus with 10 samples.

Results

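A set of 10 genes that respond to glucocorticoid hormone were described in rat mammary tumours sampled before and after treatment with hydroxytyrosol, a phenolic compound of olive oil. The members were Nr3c1, Fkbp5, Tsc22d3, Sgk1, Klf9, Klf15, Zbtb16, Errfi1, Cebpd and Cebpb. They were chosen by name, with their final minus basal differences on these same arrays already known, so those differences are given as descriptions without a test. Of the 10 genes, 9 had a probe set that the platform annotation assigns to that gene alone, and Zbtb16 was not analysed here. The 9 genes had 17 such probe sets, of which 13 (at least 1 per gene) passed a filter on dim signal, out of 18625 probe sets for 10839 genes in the whole series. Each gene is represented by its brightest probe set unless another is named.

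In all, 5 tumours of female Sprague-Dawley rats, induced with the carcinogen DMBA (7,12-dimethylbenz(a)anthracene, a single dose of 100 mg/kg by mouth), were each measured at 2 moments on Affymetrix rat arrays. The basal group (n = 5) held needle biopsies of untreated tumours of 2 cm3, taken at 12 weeks of age. The final group (n = 5) held the same tumours at 19 weeks of age, at sacrifice, after 6 weeks of hydroxytyrosol given orally (0.5 mg/kg, 5 days per week). DMBA is therefore common to both groups, and treatment, age, tumour growth and the way of sampling cannot be told apart, since tumours of the later age without hydroxytyrosol were not analysed here. The labels name a biopsy at the first moment and a total tumour at the second, whereas the design text calls both Trucut samples. The labels give each tumour an identifier (66D2, 67D3, 45D3, 49I1 and 51I1) and do not say whether the 5 tumours came from 5 animals. Signals are on the log2 scale, where a difference of 1 is a change of 2 times, and a difference is always the final minus the basal signal of the same tumour. In these bulk samples, fewer cells of a type and less RNA per cell cannot be told apart.

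The glucocorticoid receptor, encoded by Nr3c1, is held in the cytoplasm by heat shock chaperones until hormone binds it. It then enters the nucleus and acts at DNA elements made of paired hexamers, where it induces genes, while it represses many inflammatory genes through contacts with other transcription factors. Several of its targets feed back on signalling: Fkbp5 lowers the affinity of the receptor for hormone, Tsc22d3 (also called Gilz) restrains inflammatory transcription, and Errfi1 (also called Mig6) inhibits the epidermal growth factor receptor. In mammary tissue, glucocorticoids act together with prolactin in the induction of milk protein genes.

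Errfi1 and Fkbp5 had a lower signal after treatment in every tumour, and the other 7 measured members differed in direction between tumours. Errfi1 was lower in 5 of 5 tumours, with a mean difference of -0.61 (limma SE 0.12, n = 5), and was the single member whose basal and final signals did not overlap. Fkbp5 differed by -0.39 (SE 0.18) in the mean, and Sgk1 was lower in 4 of 5 tumours. Klf15 was higher in 4 of 5 tumours, by at least 0.62, and differed by -1.42 in the fifth, 45D3. That tumour gave the most negative difference of all 5 for 9 of the 9 members measured. Of all genes tested, 25.3% had their lowest difference there. The members were chosen with their differences known, so nothing is read from setting these shares side by side. Over the whole table, 0 of 18625 probe sets (0%) passed limma's threshold of an adjusted p of 0.05, so no member passed it either; 1494 probe sets had an unadjusted p under 0.05.

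**Figure D1:**
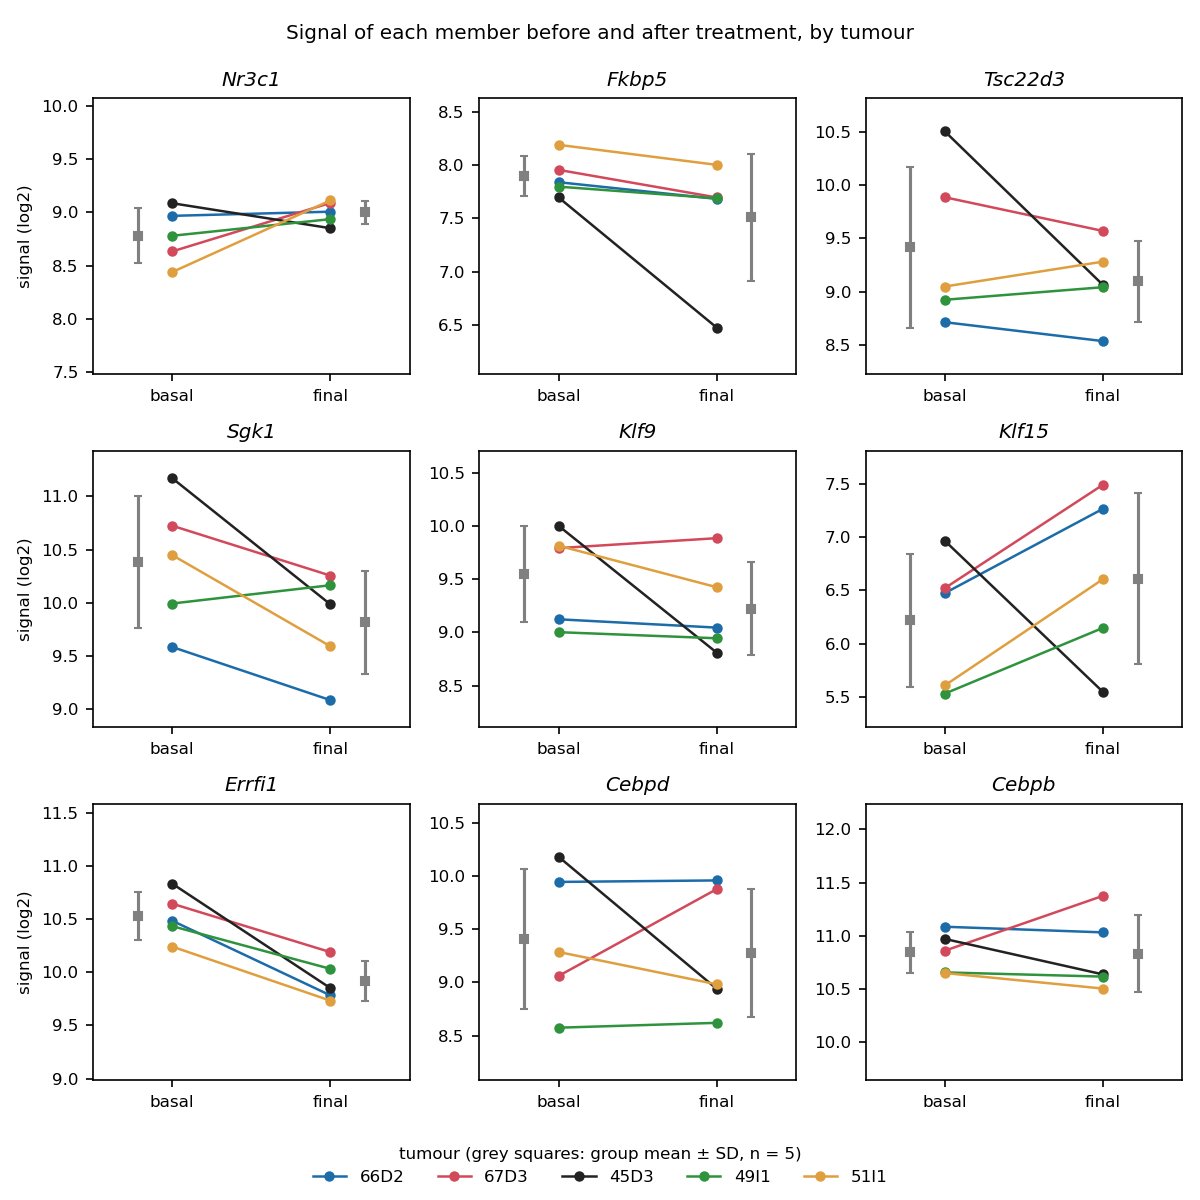
Signal of the 9 measured members on the log2 scale (y axis, each panel spanning 2.6 units) in the basal and final sample of each tumour (joined points, n = 5 tumours), with the group mean ± SD as grey squares. Errfi1 runs downward in every tumour, Klf15 runs upward in 4 tumours and downward in 45D3, and the black line of 45D3 falls in every panel.

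Nr3c1, the receptor itself, had basal signals of 8.97, 8.63, 9.09, 8.78 and 8.44 in tumours 66D2, 67D3, 45D3, 49I1 and 51I1. The final signals, in the same order of tumours, were 9.01, 9.09, 8.85, 8.94 and 9.11. The final signals lay closer together than the basal ones (SD 0.11 against 0.26, n = 5 each), and the groups overlapped. The basal mean of 8.78 ± 0.26 (SD, n = 5) stood beside a final mean of 8.999 ± 0.11 (SD, n = 5), and the difference was 0.22 (SE 0.15). Nr3c1 was thus higher in 4 of 5 tumours, by 0.04 to 0.67, and differed by -0.24 in 45D3. The mean difference was 0.33 without 45D3 and 0.10 without 51I1. A second probe set for Nr3c1 (4.94 basal, 5.31 final) lay around the dim cutoff of 5.14 and was not tested.

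Fkbp5 encodes a co-chaperone that binds the receptor complex and is itself induced by the receptor. Its brightest probe set read 7.84, 7.96, 7.70, 7.80 and 8.19 in the basal samples of 66D2, 67D3, 45D3, 49I1 and 51I1. The final signals were 7.68, 7.70, 6.47, 7.69 and 8.004. Every final signal lay below its own basal signal, the groups overlapped, and the final sample of 45D3 stood far below the others (6.47 against 7.68 in the next lowest). The mean difference was -0.39 (SE 0.18, n = 5), and it was -0.18 without 45D3. The dimmer Fkbp5 probe set differed by -0.22 (SE 0.11), was lower in 4 of 5 tumours and read 0.02 in 45D3, so the 2 probe sets disagreed in the tumour that carried the largest change. Both sets lay mostly below the bioB spike-in, the control that the study used as its sensitivity limit (mean 8.04 over the arrays): the brighter one exceeded it on 2 of 10 arrays and the dimmer one on 0 of 10. No fold is given for Fkbp5.

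Errfi1 encodes a cytoplasmic inhibitor of receptors of the epidermal growth factor family. Its basal signals in 66D2, 67D3, 45D3, 49I1 and 51I1 were 10.48, 10.64, 10.83, 10.43 and 10.24. Its final signals were 9.78, 10.19, 9.85, 10.03 and 9.73 in the same order. The lowest basal signal (10.24) lay above the highest final signal (10.19). Such a separation with lower final signals was found for 1.09% of the genes tested, and, since the members were chosen with this contrast known, nothing is read from that share. The basal samples averaged 10.53 ± 0.22 (SD, n = 5) and the final ones 9.92 ± 0.19 (SD, n = 5), which puts the final signal at 0.655 times the basal one. The difference per tumour ran from -0.40 to -0.98, and with any 1 tumour left out the mean stayed between -0.66 and -0.52. Errfi1 and Fkbp5 were the 2 of 9 members that were lower in all 5 tumours, against 5.27% of all genes, and 0 of 9 were higher in all 5, against 3.52% of all genes.

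Sgk1 encodes a kinase that is induced rapidly by glucocorticoids and by the mineralocorticoid aldosterone and that promotes ion transport and cell survival. It had the widest drop after Errfi1, with basal signals of 9.58, 10.72, 11.17, 9.99 and 10.45 in 66D2, 67D3, 45D3, 49I1 and 51I1. Final signals were 9.08, 10.26, 9.98, 10.17 and 9.59. The groups overlapped, and 66D2 was the lowest tumour at both moments. Sgk1 was lower in 4 of 5 tumours and higher by 0.17 in 49I1, and it averaged 10.38 ± 0.62 (SD, n = 5) before and 9.82 ± 0.48 (SD, n = 5) after treatment. The difference of -0.57 (SE 0.19) corresponds to 0.674 times the basal signal, and it was -0.41 without 45D3 and -0.75 without 49I1.

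Tsc22d3, the leucine zipper protein that mediates part of the anti-inflammatory action of glucocorticoids, had basal signals of 8.71, 9.89, 10.51, 8.92 and 9.05. The final signals were 8.53, 9.57, 9.06, 9.04 and 9.28, again for 66D2, 67D3, 45D3, 49I1 and 51I1. The groups overlapped in most of their range. The 2 highest basal signals belonged to 45D3 and 67D3, the 2 biopsies that also read highest for Sgk1. Tsc22d3 was lower in 3 tumours and higher in 2, and its mean difference of -0.32 (SE 0.25, n = 5) shrank to -0.04 when 45D3 was left out, so 45D3 carried nearly the whole value.

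Klf9 and Klf15 encode zinc finger transcription factors of the Krüppel-like family; Klf15 controls amino acid and glucose metabolism in muscle, liver and fat. Klf9 had basal signals of 9.12, 9.79, 10.003, 9.002 and 9.82 in 66D2, 67D3, 45D3, 49I1 and 51I1, and final signals of 9.05, 9.89, 8.81, 8.94 and 9.43. Its mean difference was -0.33 (SE 0.20, n = 5), with 4 of 5 tumours lower, and -0.11 without 45D3. A dimmer Klf9 probe set, below the bioB level on every array, differed by -0.07 (SE 0.10) and by 0.12 in 45D3, where the brighter set read -1.19. The Klf9 probe sets thus disagreed in 45D3 in the way the Fkbp5 sets did. Another Klf9 set was too dim to test.

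Klf15 had basal signals of 6.47, 6.52, 6.97, 5.53 and 5.61 in 66D2, 67D3, 45D3, 49I1 and 51I1. The final signals were 7.27, 7.49, 5.55, 6.15 and 6.61 in the same order. In the basal group 45D3 was the highest tumour and in the final group the lowest, while the other 4 tumours kept the same order among themselves at both moments. The groups overlapped. Basal signals averaged 6.22 ± 0.63 (SD, n = 5) and final signals 6.61 ± 0.80 (SD, n = 5). The difference of 0.39 (SE 0.37) lay between 0.24 and 0.34 with any 1 tumour other than 45D3 left out. It became 0.85 (SE 0.11) without 45D3. That tumour was singled out by its opposite sign in these same values. The smaller SE follows from that choice and does not measure precision. All 10 signals exceeded 5.14, the dim cutoff, yet none reached the bioB level of its array, so the level is not shown to be above the study's own sensitivity limit and no fold is given. A dimmer Klf15 probe set (5.13 basal, 5.21 final), at the dim cutoff, was higher in 3 of 5 tumours and differed by -0.30 in 45D3, and another was too dim to test. Averaged over the tested sets, Klf15 differed by 0.24.

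Cebpd and Cebpb encode CCAAT/enhancer-binding proteins, leucine zipper factors of acute inflammation, fat cell formation and mammary development. Cebpd had basal signals of 9.95, 9.06, 10.18, 8.57 and 9.29 and final signals of 9.96, 9.88, 8.94, 8.62 and 8.98 in 66D2, 67D3, 45D3, 49I1 and 51I1. The groups overlapped almost fully: the difference was 0.82 in 67D3 and -1.24 in 45D3, and the other 3 differed by -0.30 to 0.05. The mean difference was -0.13 (SE 0.27, n = 5), and it was 0.14 without 45D3 and -0.37 without 67D3. The next Cebpd probe set showed the same 2 extremes, with 1.23 in 67D3 and -0.62 in 45D3. Cebpb had basal signals of 11.08, 10.86, 10.97, 10.66 and 10.65 and final signals of 11.03, 11.38, 10.64, 10.62 and 10.50. The Cebpb groups overlapped, with a difference of 0.52 in 67D3 and of -0.33 to -0.04 in the other 4 tumours, and with a mean difference of -0.01 (SE 0.14, n = 5).

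**Figure D2:**
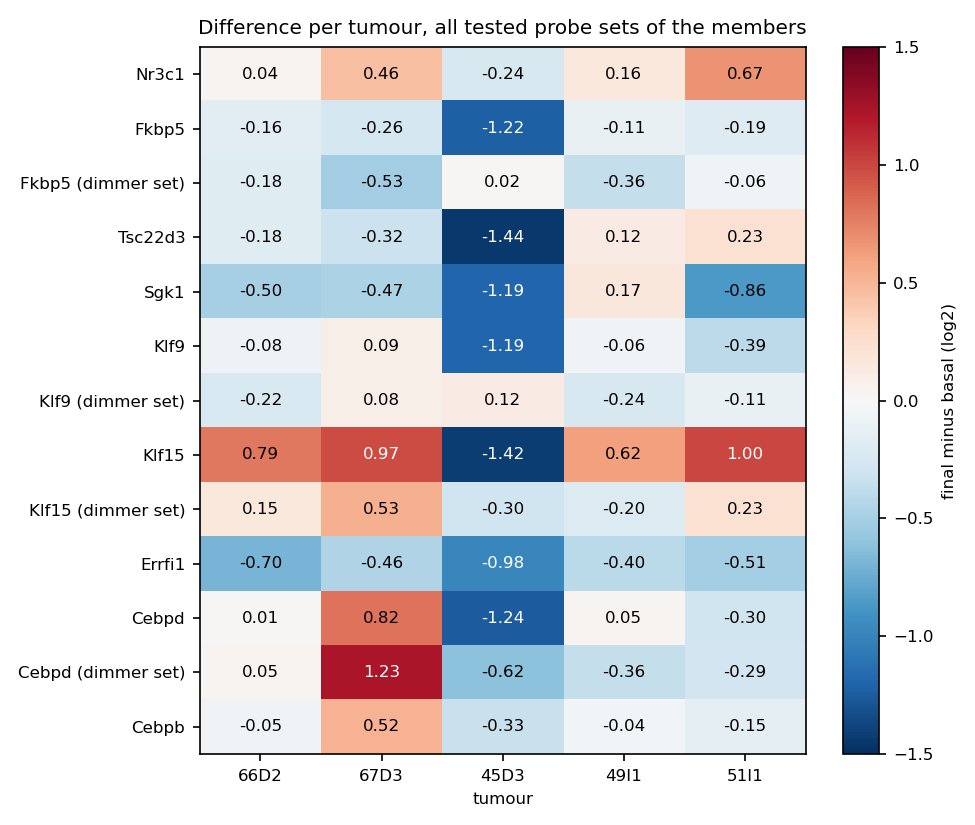
Final minus basal difference (log2, colour and printed value) of the 13 tested probe sets of the members (rows) in each of the 5 tumours (columns). The column of 45D3 is negative for the brightest set of every gene, down to -1.44 for Tsc22d3, while the dimmer sets of Fkbp5 and Klf9 read 0.02 and 0.12 there.

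The 45D3 pattern came from both ends of the pair. In the basal group, 45D3 had the highest signal of the 5 tumours for 7 of 9 members, where 23.8% of all genes tested were highest in that biopsy. In the final group it had the lowest signal for 4 of 9 members, where 16% of all genes were lowest there. The median difference of the 9 members was -1.19 in 45D3, and it was -0.08 in 66D2, 0.09 in 67D3, 0.05 in 49I1 and -0.19 in 51I1. Over all genes tested, the median in 45D3 was 0.04. Without 45D3, 2 of 9 members (Nr3c1 and Klf15) were higher in all 4 remaining tumours, against 11.9% of all genes. Likewise, 2 of 9 (Fkbp5 and Errfi1) were lower in all 4, against 18.4% of all genes. Since the members were chosen with this contrast known, nothing is read from the member counts in this paragraph.

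The biopsy of 45D3 also stood apart in RNA quality. The 3′ minus 5′ signal of the hexokinase control, which grows where RNA is degraded, was 2.36 in the basal array of 45D3 and 2.03 in that of 67D3, against 0.97 to 1.29 in the other 3 basal arrays and 0.89 to 1.08 in the final arrays. Its change was -1.47 in 45D3, -1.02 in 67D3 and between -0.27 and 0.11 in the other tumours. The deviations of the 45D3 arrays from their group means, correlated over all tested probe sets, gave -0.16, against 0.175 to 0.72 in the other 4 pairs. The final array of 45D3 did not match its own biopsy best, unlike those of the other 4 tumours. Tumour 67D3, with the next largest hexokinase change, had a member median of 0.09, with 5 members higher and 4 lower in the final sample. The part of RNA quality in the members' values was not tested.

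**Figure D3:**
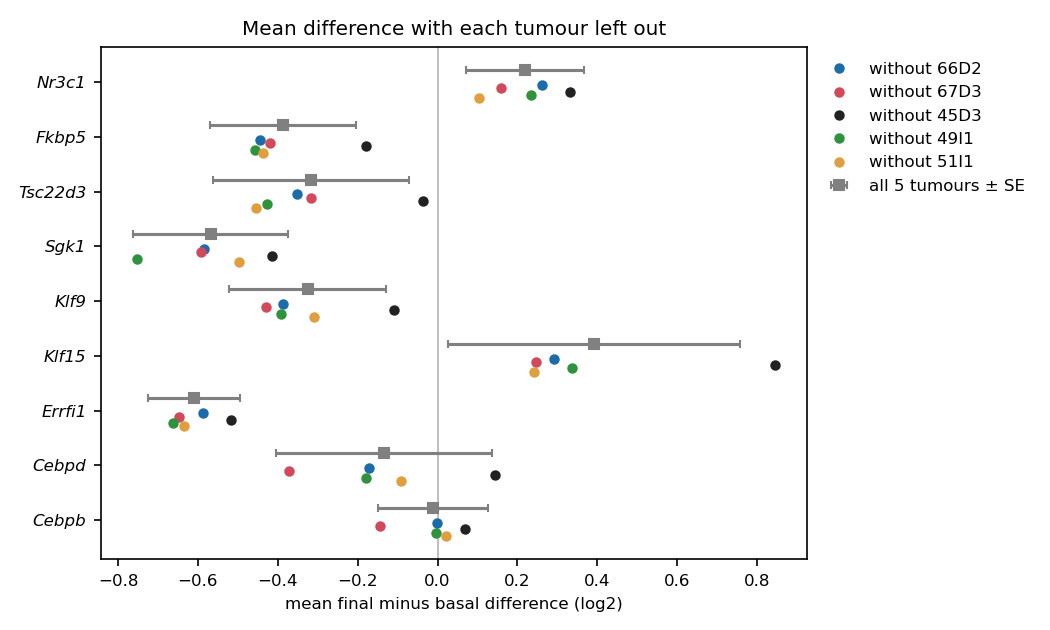
Mean final minus basal difference of each member (x axis, log2) over all 5 tumours with its limma SE (grey squares) and with each tumour left out (coloured points). Leaving out 45D3 moves every member to the right, most for Klf15 (0.39 to 0.85), while Errfi1 stays at or below -0.52 whichever tumour is left out.

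Across the 10 arrays the members did not follow 1 common pattern. As a description over 10 arrays from 5 tumours, which share tumours in pairs, Tsc22d3, Sgk1 and Klf9 went together (Pearson r 0.86 for Tsc22d3 with Sgk1, 0.76 for Tsc22d3 with Klf9 and 0.69 for Sgk1 with Klf9). These values were 0.77, 0.75 and 0.63 over the 8 arrays without 45D3. Klf15 went with Cebpb (0.76) and Cebpd (0.73), and Cebpd with Cebpb (0.80), with values of 0.73, 0.70 and 0.82 without 45D3. Klf15 had an r of -0.07 with Sgk1 and 0.03 with Errfi1, and without 45D3 these values were -0.35 and -0.36. Errfi1 varied with Sgk1 (0.73, and 0.62 without 45D3). Of the 36 pairs of members, 31 had an r above 0 over the 10 arrays and 22 over the 8 arrays without 45D3.

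**Figure D4:**
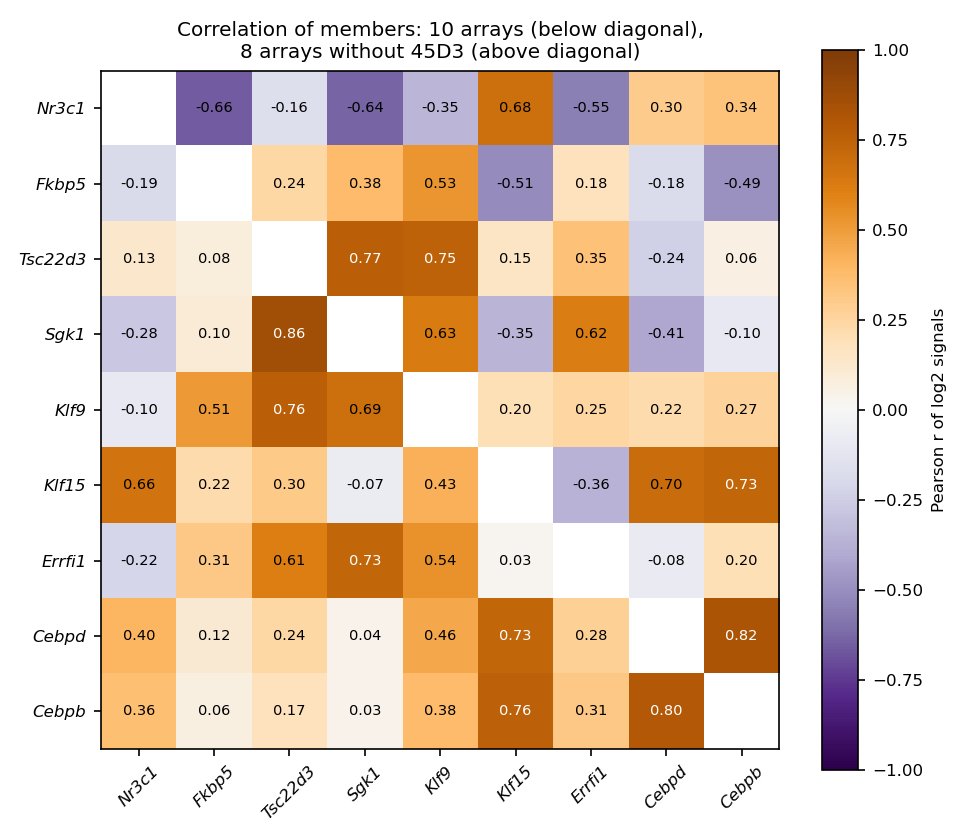
Pearson correlation of the log2 signals of each pair of members over the 10 arrays (below the diagonal) and over the 8 arrays without 45D3 (above it). The blocks of Tsc22d3, Sgk1 and Klf9 and of Klf15, Cebpd and Cebpb keep an r of at least 0.63 on both sides of the diagonal.

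Outside the members, the genes whose signals followed Klf15 most closely over the 10 arrays were Dnaaf9 (r 0.96), Frmd8 (0.93), Wdfy2 (0.92), Cpne8 (0.92) and Sectm1b (0.915). Frmd8 encodes a protein of the membrane cytoskeleton family that binds iRhoms, and Wdfy2 an endosomal adaptor. Without 45D3 these correlations were 0.96, 0.92, 0.90, 0.91 and 0.90. The genes that ran most strongly against Klf15 were Smap1 (-0.94), Rtca (-0.93), Zfp652 (-0.92), Ift74 (-0.91) and Rbx1 (-0.90), the last a subunit of cullin ubiquitin ligases. Mean differences of these 10 genes were small, from -0.16 to 0.33. They were taken as extremes of 10839 genes over 10 arrays, so their size carries that selection.

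The proximal promoters were searched because several members varied together. RefSeq windows of 300 bases (250 before to 50 after a gene start, build GRCr8) were found for 8 of the 10 members, with 13 windows since some genes have several starts; the table did not list Cebpd or Zbtb16. The sources do not say which start a probe set reads. The palindromic glucocorticoid element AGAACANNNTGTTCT was in 0 of the 13 windows and in 0.0149% of all 33469 windows. Its single arm AGAACA, on either strand, was in 0 of 13 member windows and in 20.7% of all windows. The E-box CACGTG, which clock factors bind, was in 1 of 13 windows, that of Klf15, and in 6.42% of all windows. The cAMP motif TGACG, searched on both strands, was in 5 of 13 windows against 21.2% of all, CCAAT on both strands in 5 of 13 against 37.5%, and TATAAA on both strands in 5 of 13 against 14.2%. G and C made up 40.7% to 81% of the bases in the member windows, against a median of 51.7% over all windows. The shares above were not matched for this base content, so no depletion or excess of a motif is read from them. A match describes the letters in the window, and a window without a match says nothing about elements further away.

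Windows of 4 members are shown: Klf15, whose sign differed between tumours, Errfi1, whose groups did not overlap, and 1 window each of Sgk1 and Tsc22d3, the pair with the highest r over the 10 arrays (over the 8 arrays without 45D3, Cebpd with Cebpb had a higher one). Capitals mark the E-box, cAMP, CCAAT and TATA matches on either strand, and neighbouring matches can merge. In Klf15 the E-box starts 101 bases before the gene start and shares 2 bases with a reverse match of the cAMP motif that starts 104 bases before it. The TATAAA match starts 35 bases before the start in the window shown of Errfi1, 33 in that of Sgk1 and 44 in that of Tsc22d3. Another Sgk1 window has the match 55 bases before its start, and a further Sgk1 window and the other Tsc22d3 windows hold none of the marked matches. The windows lie on GRCr8 at chr4:124522765-124523064 (plus strand) for Klf15, chr5:166606591-166606890 (plus strand) for Errfi1, chr1:24804782-24805081 (minus strand) for Sgk1 and chrX:109009985-109010284 (minus strand) for Tsc22d3, and each is written 5′ to 3′ on the strand of its gene.
Klf15: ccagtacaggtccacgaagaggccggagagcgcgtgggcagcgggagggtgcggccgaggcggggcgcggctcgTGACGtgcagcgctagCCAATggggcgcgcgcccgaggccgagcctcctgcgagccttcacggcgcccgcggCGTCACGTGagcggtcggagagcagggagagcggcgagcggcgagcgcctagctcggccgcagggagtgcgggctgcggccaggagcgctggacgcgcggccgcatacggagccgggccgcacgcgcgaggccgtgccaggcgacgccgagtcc
Errfi1: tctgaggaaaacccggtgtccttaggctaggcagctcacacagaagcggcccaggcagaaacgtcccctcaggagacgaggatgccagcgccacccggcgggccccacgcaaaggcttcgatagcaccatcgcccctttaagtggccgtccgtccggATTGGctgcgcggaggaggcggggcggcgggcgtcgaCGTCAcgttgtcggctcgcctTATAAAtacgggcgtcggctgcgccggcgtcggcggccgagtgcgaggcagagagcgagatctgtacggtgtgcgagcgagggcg
Sgk1: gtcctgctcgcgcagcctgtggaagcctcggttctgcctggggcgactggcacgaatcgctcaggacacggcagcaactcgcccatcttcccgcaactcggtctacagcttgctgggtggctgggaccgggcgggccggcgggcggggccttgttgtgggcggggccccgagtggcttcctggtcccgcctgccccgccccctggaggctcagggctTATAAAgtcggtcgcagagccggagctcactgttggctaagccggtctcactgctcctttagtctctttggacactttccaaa
Tsc22d3: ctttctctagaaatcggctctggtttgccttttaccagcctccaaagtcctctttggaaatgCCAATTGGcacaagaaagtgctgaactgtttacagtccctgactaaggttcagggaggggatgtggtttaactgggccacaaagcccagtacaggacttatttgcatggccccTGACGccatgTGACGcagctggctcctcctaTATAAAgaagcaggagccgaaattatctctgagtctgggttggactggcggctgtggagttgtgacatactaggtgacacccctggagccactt

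The rest of the receptor pathway showed no shared shift. Of 12 tested genes of the receptor machinery (chaperones, hormone-converting enzymes and cofactors, from a list of 14), 7 had a higher and 5 a lower mean, with a median difference of 0.02 and 0 past the adjusted threshold. At an unadjusted p under 0.05 there was 1 higher and 0 lower, against 2.78% and 4.36% of all genes. The 3 brightest of the list were Hsp90ab1, the chaperone that holds the receptor ready for hormone (difference 0.02, SE 0.09), its partner Ptges3 (-0.17, SE 0.09, lower in 5 of 5 tumours) and the co-chaperone Fkbp4 (-0.26, SE 0.19). Hsd11b1, the enzyme that regenerates active glucocorticoid inside cells, stood out for its range: it differed by 1.14, 0.79 and 2.05 in 66D2, 49I1 and 51I1 and by -0.58 and -2.18 in 67D3 and 45D3. It is named because of that range, after its values were seen.

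Other genes known to be induced by glucocorticoids were split. Of 22 tested from a list of 26, 9 had a higher and 13 a lower mean, and the median difference was -0.13. In limma, 0 passed the adjusted threshold. At an unadjusted p under 0.05, 3 were higher and 2 lower, against 2.78% and 4.36% of all genes. The 3 brightest were Anxa1, the anti-inflammatory protein annexin A1 (0.16, SE 0.10), Lcn2, an iron-carrier-binding protein (-0.18, SE 0.13), and Txnip, a thioredoxin inhibitor (0.66, SE 0.21, higher in 4 of 5 tumours). The 5 genes with an unadjusted p under 0.05, named after their values were seen, were Txnip, Foxo1, Mertk, Mt2A and Per1. Txnip had a higher mean, Foxo1 (0.45) and Mertk (0.48) were higher in 5 of 5 tumours, and Mt2A (-0.69) and Per1 (-0.72) were lower in 5 of 5. For 14 of these 22 genes the most negative difference was in 45D3, against 25.3% of all genes tested. The list median was -0.47 in 45D3, 0.23 in 66D2 and between -0.15 and -0.03 in the other 3 tumours.

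Of 10 inflammatory genes that glucocorticoids repress, 7 were tested, 3 with a higher and 4 with a lower mean. Their median difference was -0.08, and 0 passed the adjusted threshold. At an unadjusted p under 0.05 (limma), 2 were lower, against 4.36% of all genes (Cxcl1, -1.13, and Il1b, -0.88, named after their values were seen). The brightest 3, the proteases Mmp3 (-0.08, SE 0.44) and Mmp13 (0.16, SE 0.65) and the adhesion protein Icam1 (0.18, SE 0.16), varied widely between tumours. The metabolic targets of Klf15 (7 tested of 9 listed) had a median difference of 0.07, with 0 past either threshold in either direction. Bckdhb and Bckdha, subunits of the enzyme that commits branched-chain amino acids to breakdown, differed by 0.14 (SE 0.14) and 0.22 (SE 0.12), and the aminotransferase Bcat2 by 0.07 (SE 0.12). In 45D3, where Klf15 differed by -1.42, the median of these targets was 0.18. They were split there, from -1.01 for Gpt (named after its values were seen) to 0.62 for Bckdhb. Whether these genes follow Klf15 was not tested.

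Other members of both transcription factor families were compared for the same reason. Of 10 tested Krüppel-like genes, 6 had a higher and 4 a lower mean, with 0 past either threshold. In 45D3, 7 of the 10 had their lowest difference, against 25.3% of all genes tested. The list median was -0.37 in 45D3 and between 0.11 and 0.29 in the other 4 tumours. The brightest 3 were Klf6 (-0.38, SE 0.25), Klf10 (0.36, SE 0.16) and Klf3 (0.04, SE 0.13). Of the 10, 4 had the signs of Klf15 in each tumour, higher in 66D2, 67D3, 49I1 and 51I1 and lower in 45D3: Klf3 and, named after their values were seen, Klf2, Klf4 and Klf11. Their differences in 45D3 were -0.46, -2.63, -2.12 and -0.14 in that order. Over all genes tested, 11.9% were higher in the 4 tumours other than 45D3, whatever their sign in 45D3. The signs of Klf15 were known beforehand, so nothing is read from the count of 4 among the 10. The 3 tested relatives of Cebpb and Cebpd, namely Cebpg (-0.11, SE 0.10), Cebpa (0.15, SE 0.11) and Ddit3 (-0.38, SE 0.23), did not pass either threshold.

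The tumours' cell type markers moved in part with the same tumours. Luminal keratins were bright in every sample, and the 7 tested luminal markers had a mean signal of 11.30 to 11.81 in basal and 11.38 to 11.82 in final samples. Fibroblast markers (6 of 6 tested) had a median difference of 0.67 to 1.71 in the 4 tumours where Klf15 was higher. It was -1.42 in 45D3, where 6 of 6 had their lowest difference, against 25.3% of all genes tested. The mean signal of the fibroblast markers ran from 9.93 to 11.68 in basal and from 9.94 to 12.44 in final samples. Adipocyte markers (6 of 9 tested) had medians of 0.67 in 66D2, 2.16 in 67D3, 0.16 in 49I1 and 4.01 in 51I1, and -1.47 in 45D3, again with 6 of 6 lowest there. Their mean signal over the list ran from 6.25 to 8.01 in basal and from 6.51 to 10.22 in final samples. Adipoq, the fat cell hormone, named after its values were seen, was below the dim cutoff in the basal mean (4.53) and above it in the final mean (5.995). It passed the filter through its final signals, so the filter bears on the adipocyte medians and counts.

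Skeletal muscle markers (9 of 12 tested) had medians of 4.37 in 66D2, 6.58 in 67D3, 2.64 in 49I1, 0.22 in 45D3 and 0.19 in 51I1, with a mean signal of 5.10 to 5.94 in basal and 5.27 to 11.68 in final samples. Of these 9 markers, 5 (Ckm, Tnnc2, Mb, Tnnt3 and Pvalb) had basal means of 3.68 to 4.27, below the dim cutoff, and passed the filter through their final signals, so the medians do not measure a fold. At an unadjusted p under 0.05 (limma), 7 of the 9 were higher, against 2.78% of all genes. In all 5 tumours, 4 of the 9 were higher, against 3.52% of all genes. The filter bears on both counts. The tumours where Klf15 was higher thus include 3 with muscle medians of 2.64 to 6.58 and 51I1 with 0.19. Endothelial markers (5 of 6 tested) had a median of -0.79 in 45D3 and between -0.16 and 1.59 elsewhere. Myoepithelial markers (6 of 6 tested) had a median difference of -0.10, macrophage markers (6 of 6) -0.01, T cell markers (6 of 6) 0.44 and mast cell markers (4 of 4) -1.01. Within each of these lists the tumours differed in sign. In 66D2, 67D3, 45D3, 49I1 and 51I1 the macrophage medians were 0.82, -0.86, -0.64, -0.54 and 1.06. In the same order, the T cell medians were 2.04, -1.25, -0.93, 1.18 and 1.37, and the mast cell medians -1.04, -3.22, 0.12, -0.915 and 0.21. Of all these marker genes, 0 passed the adjusted threshold (limma), and at an unadjusted p under 0.05 there were, besides the muscle markers, 1 adipocyte and 1 endothelial marker higher and 1 myoepithelial marker lower. The part of any of these cell types in the values of the members was not tested.

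Immediate-early and clock genes, some of which respond to glucocorticoids, are given beside the members. All 11 immediate-early genes had a lower mean (median -0.62), with 0 past the adjusted threshold. At an unadjusted p under 0.05 (limma), 6 were lower, against 4.36% of all genes. The lowest list medians were in 45D3 (-1.19) and 67D3 (-0.87). Fos and Egr1, factors induced within minutes of a stimulus, differed by -0.82 (SE 0.25) and -0.55 (SE 0.32), and Ier3 by -0.92 (SE 0.17). Of the 13 tested clock genes, 11 had a lower mean (median -0.28), with 0 past the adjusted threshold. At an unadjusted p under 0.05 (limma), 4 were lower, against the same 4.36%. The brightest clock genes were Bhlhe40 (-0.26, SE 0.27), Bhlhe41 (-0.46, SE 0.42) and Nr1d2 (-0.28, SE 0.15). The clock median lay between -0.48 and -0.17 in all 5 tumours and was -0.41 in 45D3. The clock median thus did not set 45D3 apart as the member median did. Single clock genes did range widely there, from -2.37 for Bhlhe41 to 1.05 for Bhlhe40. In 45D3, 5 of the 13 had their lowest difference, against 25.3% of all genes.

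**Figure D5:**
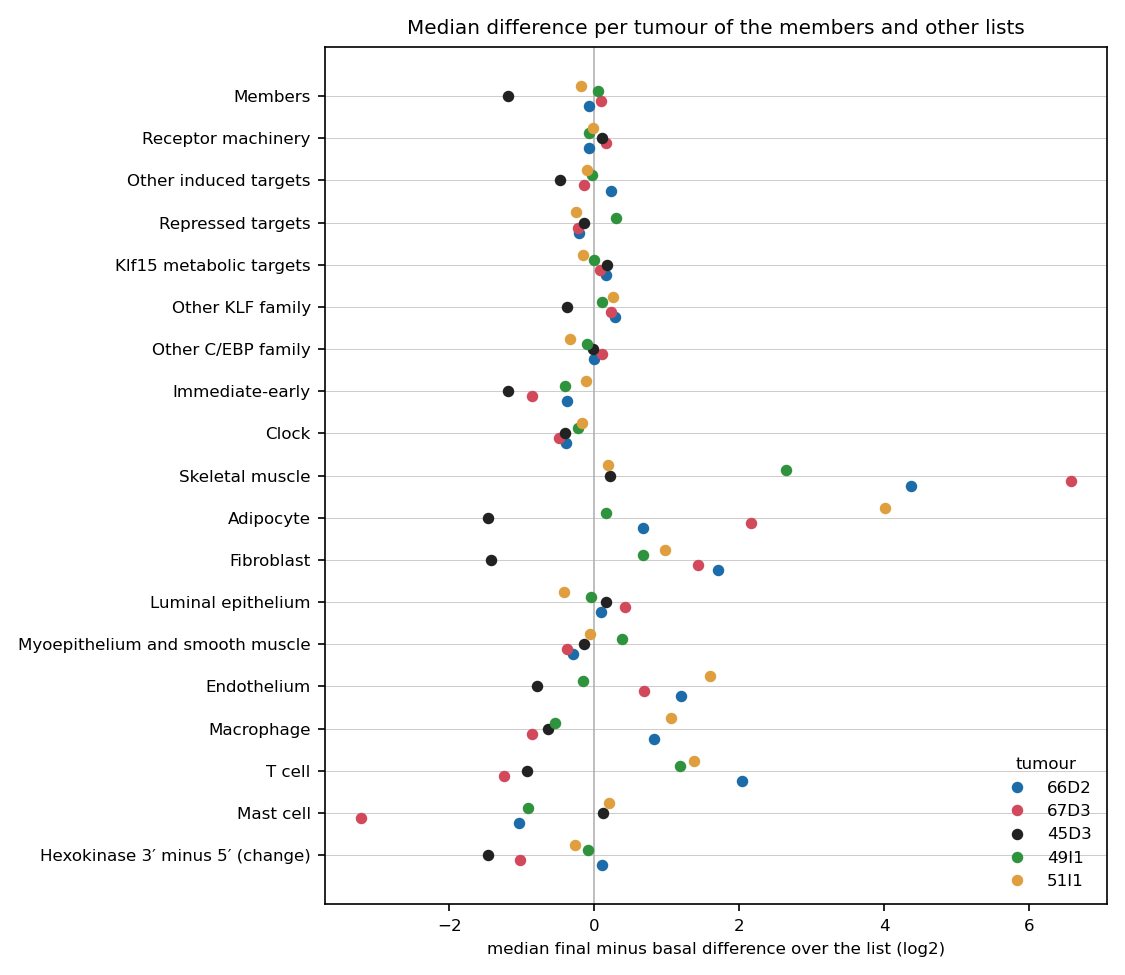
Median final minus basal difference (x axis, log2) of the 9 members and of each comparison list in each tumour (coloured points), with the change of the hexokinase 3′ minus 5′ signal in the bottom row. 45D3 (black) is the lowest point for the members, other induced targets, Krüppel-like genes, immediate-early genes, fibroblasts, adipocytes and endothelium, and not for the receptor machinery, the clock or the luminal markers.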

How the data were processed

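RNA of 10 tumour samples was hybridised to Affymetrix rat arrays. According to the design text, the authors applied RMA (Robust Multichip Average), a tool that the submitters' processing notes also name, and the deposited values were read as log2 signals from their range, since the labels name no scale. RMA makes the distributions of all arrays alike, which hides a change in total RNA per cell. Of 31099 probe sets, 57 were controls. The platform annotation of 2016 gave 20826 probe sets 1 symbol, 436 several and 9780 none; only the first kind was named. The dimmest 40% by mean over all arrays (below 5.14) were left out, which kept 18625. The fit used limma (version 3.58.1, R 4.3.3) with the tumour as a block, as the design text describes a paired test, and Benjamini-Hochberg adjustment over all probe sets (4 residual and 2.64 prior degrees of freedom). The labels pair the samples by tumour identifier. Same-tumour deviations correlated by 0.30 in the mean, and 4 of 5 final arrays matched their own biopsy best. The exception was 45D3, whose pair correlated by -0.16, so the pairing of 45D3 rests on its label. The fit was tested on simulated data. The members and gene lists were chosen with earlier results of these data known. Genes were named by rule if they were members, among the 3 brightest of a pathway or family list, or among the 5 most and 5 least like Klf15; marker lists are given by their counts and medians, and any other gene named was chosen after its values were seen. Where nothing says that samples came from separate animals, p-values measure the spread between these samples. Precision is limited by the number of arrays.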

Additional observations from a re-analysis of the deposited data

Results flagged for a closer look

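Each tested member probe set was screened for a tumour far from the other 4, in the basal signals, the final signals and the differences, 39 screens of which about 1 in 20 would stand out by chance. In 4 of them a tumour did. The final signal of Fkbp5 in 45D3 was 6.47, with the next lowest at 7.68, and its difference there was -1.22, with the next at -0.26. The Klf15 difference in 45D3 was -1.42, with the next lowest at 0.62. The final signal of the dimmer Klf9 probe set in 49I1 was 6.32, with the next lowest at 6.82.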

How the results depend on the processing

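In the limma fit, 0 probe sets passed an adjusted p of 0.05 under every alternative run: no replicate block (1001 at an unadjusted p under 0.05), the tumour as a random block (1620), array weights (3254), the methods' t-test (1394, and 0 after adjustment), median centring, quantile normalization, other dim filters and each tumour left out (795 to 3383, the highest without 45D3). The smallest adjusted p in limma was 0.413 in the paired fit, 0.0596 without 45D3 and 0.0648 with a random block, so the last 2 came close to the threshold. The unblocked and paired fits both gave 0 calls. Their mean difference for Klf15 (0.39) is the same by construction, as it is with a random block, since every tumour has both samples. The number of probe sets that moved the same way in every tumour was 1622 with all tumours, 2511 with no dim filter, where more probe sets were counted, and 2147 to 5244 with 1 tumour left out, where fewer pairs had to share a sign; the highest was without 45D3. The number of members that did so was 2 of 9 in the paired comparison, both lower, against 5.27% of all genes lower and 3.52% higher in all 5. With 1 tumour left out it was 2 to 4. It was 4 of 9 without 45D3, against 28.2% of probe sets, and 4 of 9 without 67D3, against 11.5%. The members were chosen with this contrast known, so nothing is read from these counts. Klf15 differed by 0.69 with array weights, 0.24 as the mean of its tested probe sets, and 0.24 to 0.85 with 1 tumour left out, always above 0. The sign of Cebpb (-0.03 to 0.03 across settings with all tumours, and -0.14 without 67D3 to 0.07 without 45D3) and of Cebpd (-0.15 to 0.04, and -0.37 without 67D3 to 0.14 without 45D3) is not settled. The other 7 members kept their sign under all 11 alternatives. Among these, a change of block could not alter any mean, and averaging probe sets could not alter a gene with 1 tested set. Median centring and quantile normalization moved the median of all probe sets by -0.02 and -0.01. Signals below the bioB level, those of Klf15 and most of Fkbp5, limit what can be said of their size.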
